A study of Sus scrofa with 16 samples.

Results

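The cytosolic and mitochondrial heat shock proteins are the chaperones of the general folding machinery, and 10 of their genes were followed here in pig subcutaneous fat: HSPA8, HSPH1, DNAJB1, DNAJA1, HSP90AA1, HSP90AB1, HSPD1, HSPE1, HSPB1 and CRYAB. A probe was a member if the scanner files gave it the gene's name, if it was no control, and if the scanner software called its signal well above background on 8 or more of the 16 arrays. That rule found 33 of 43603 probes, for 5 of the 10 genes: HSPD1 had 20 probes, HSP90AA1 had 6, HSPE1 had 4, HSPH1 had 2 and DNAJB1 had 1. All 33 passed the signal filter. Another 13 probes carried an older name or only a description and are given beside them. They were 6 for HSP90AB1 (named HSPCB in the files), 3 for DNAJB1, 2 for HSPB1 (named Hsp27), 1 for HSPA8 and 1 for CRYAB. No probe was found here for DNAJA1, so 9 genes were described.

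The tissue came from pigs of 20 kg body weight fed ad libitum, from a line with low residual feed intake (low-RFI, labelled RFIneg) and a line with high residual feed intake (high-RFI, labelled RFIpl). Residual feed intake is the share of feed intake left over after growth and maintenance are accounted for, so a low value marks an efficient animal. Each line has 8 pigs, 1 for each of the replicates numbered 1 to 8, and total RNA of each was labelled with Cy3 and read on 1 Agilent 1-colour array. Replicates 5-8 and replicates 1-4 are compared as well. The labels give the replicate number no meaning, and this split was taken up with earlier results of these arrays known, so its p-values describe a difference already seen.

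Heat shock proteins hold unfolded proteins in solution and help them fold. HSP70 proteins such as HSPA8 bind short hydrophobic stretches in a cycle driven by ATP, J-domain proteins such as DNAJB1 and DNAJA1 bring them clients, and HSPH1 resets the cycle by exchanging the nucleotide. HSP90 proteins finish kinases and hormone receptors, HSPD1 and HSPE1 form the folding chamber of the mitochondrial matrix and its lid, and the small proteins HSPB1 and CRYAB hold aggregating proteins without ATP. Most of these genes are switched on together by the transcription factor HSF1 when proteins unfold, and CRYAB is abundant in muscle.

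The probes of 1 gene are not independent measurements, as the HSPD1 probes show. The files hold 24 pairs of HSPD1 probes with overlapping sequence, and 18 of the 20 probes belong to at least 1 such pair. In 18 of those pairs the shared stretch could only be lined up with a gap, and 2 pairs held a mismatch. Probes 5 to 9 are printed because each lies a few bases further along the same transcript, and the capitals mark 15 bases that all 5 contain.
HSPD1 probe 5: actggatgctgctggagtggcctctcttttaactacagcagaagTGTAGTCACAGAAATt
HSPD1 probe 6: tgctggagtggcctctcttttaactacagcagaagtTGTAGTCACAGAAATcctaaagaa
HSPD1 probe 7: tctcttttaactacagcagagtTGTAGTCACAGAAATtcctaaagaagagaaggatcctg
HSPD1 probe 8: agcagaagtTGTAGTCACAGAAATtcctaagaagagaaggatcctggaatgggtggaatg
HSPD1 probe 9: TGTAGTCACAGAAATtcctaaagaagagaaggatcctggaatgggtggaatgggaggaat
Over the arrays these 5 probes gave r of 0.947 to 0.991 in their 10 pairs. All pairs that needed a gap gave r of 0.873 to 0.991.

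For each of the other genes the brightest probe, on which its results rest, is shown. DNAJB1 probe 1 held the only difference past the threshold, and its first 30 bases are given with those of HSPH1 probe 2, HSPA8 probe 1, CRYAB probe 1, HSPE1 probe 3 and HSP90AB1 probe 6. DNAJB1 probe 3 is given whole, at 60 bases, as a second probe of that gene, with r = 0.814 to probe 1 over the arrays. HSPB1 probe 2 is whole as well, as are HSP90AA1 probes 2 and 4, which disagreed most among the HSP90AA1 probes. No capitals are used because no stretch is singled out.
DNAJB1 probe 1: cccagggagggctttcgtactgctgaatgt
DNAJB1 probe 3: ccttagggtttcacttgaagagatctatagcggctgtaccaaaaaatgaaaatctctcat
HSPH1 probe 2: gtgcgttgtcatgtgaaggtgtaaaatgga
HSPA8 probe 1: cacagggaaaggaaattacattgcacttta
CRYAB probe 1: gcattttttaaaacaagaaaccttcctcat
HSPB1 probe 2: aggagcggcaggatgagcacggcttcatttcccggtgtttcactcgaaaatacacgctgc
HSPE1 probe 3: gcccccattccactgaagttctgagatctt
HSP90AB1 probe 6: tctcctctgctgatgtctagtggttttatt
HSP90AA1 probe 2: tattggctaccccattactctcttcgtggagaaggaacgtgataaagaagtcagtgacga
HSP90AA1 probe 4: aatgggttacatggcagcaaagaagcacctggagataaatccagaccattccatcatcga
The longest run of bases shared by probes of different member genes was 11, between a CRYAB and a DNAJB1 probe.

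Spots called well above background made up 68.7% to 80.3% of each array, no spot was saturated, and pairs of arrays correlated at 0.944 to 0.989 across probes. The adipocyte hormone ADIPOQ was at 7.89 to 8.68 on all 16 arrays, on the scale used throughout: log2 signal minus the array's 75th percentile, so that 0 is the 75th percentile. Markers of other tissue stood out on some arrays. The mean of 14 skeletal muscle genes lay 8.20 above its average on low-RFI replicate 8, 1.37 on low-RFI replicate 6 and 0.59 on high-RFI replicate 7, against -1.06 to -0.45 on the others. The fast muscle myosin light chain MYL1 was at 8.00, 0.78 and -1.06 on these 3 arrays and at -5.90 to -4.57 elsewhere. The muscle marker TNNT3 was at 7.88, 0.165 and -1.68 on them and at -5.90 to -3.61 elsewhere. The muscle marker CKM stood out only on low-RFI replicate 8, at 6.24. On low-RFI replicate 6 and high-RFI replicate 7 it was at 0.56 and 0.07, within its range of -1.11 to 0.895 elsewhere. The mean of 6 epithelial genes was raised by 3.26 on high-RFI replicate 6, by 2.04 on replicate 2 and by 1.34 on replicate 7, and T and NK cell genes by 1.64 on high-RFI replicate 5. No marker gene of blood cells was measured. In tissue RNA, fewer cells of a type and less RNA per cell cannot be told apart.

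HSPA8, the constitutive HSP70 of the cytosol, had its lowest, median and highest level at 4.39, 5.38 and 6.26 in low-RFI pigs, against 4.86, 5.42 and 5.87 in high-RFI pigs. The lines overlapped throughout, and the line difference was 0.02 (SE 0.22, 95% interval -0.45 to 0.48, adjusted p = 1.0 in limma). HSPH1, the nucleotide exchange factor of the HSP110 family, had levels of 1.15, 1.70 and 3.0 in low-RFI pigs, against 1.54, 1.98 and 2.50 in high-RFI pigs at probe 2, with a line difference of -0.16 (SE 0.25). Both genes were lowest on low-RFI replicate 1 and highest on low-RFI replicate 3, so the extremes of both lay within 1 line and within replicates 1-4.

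DNAJB1, the stress-inducible J-domain partner of HSP70, had levels of 2.72, 3.12 and 3.51 in low-RFI pigs, against 2.77, 3.45 and 3.86 in high-RFI pigs at probe 1. The line difference was -0.21 (SE 0.17, adjusted p = 1.0 in limma). By replicates the picture was different. In low-RFI pigs replicates 5-8 had 3.22, 2.99, 2.95 and 2.72, against 3.09, 3.14, 3.51 and 3.49 in replicates 1-4. In high-RFI pigs replicates 5-8 had 2.77, 2.98, 3.32 and 2.88, against 3.58, 3.58, 3.86 and 3.83 in replicates 1-4. Every high-RFI array of replicates 5-8 lay below every high-RFI array of replicates 1-4, while in low-RFI pigs replicate 5 overlapped the other set. The share of all probes that separate in this way within 1 line was not counted.

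HSP90AA1, the inducible cytosolic HSP90, had levels of 5.21, 5.66 and 5.79 in low-RFI pigs, against 5.05, 5.41 and 5.71 in high-RFI pigs at probe 2. The line difference was 0.19 (SE 0.11, adjusted p = 1.0 in limma), and 7 of 8 low-RFI arrays lay above the high-RFI mean. HSP90AB1, its constitutive paralog, had levels of 6.47, 6.76 and 6.92 in low-RFI pigs, against 5.99, 6.73 and 6.95 in high-RFI pigs at probe 6. Its spot on high-RFI replicate 8 was marked as an outlier by the scanner software, so this probe has 15 values. The lowest, 5.99, belonged to high-RFI replicate 5 alone, and the line difference of 0.09 (SE 0.13) became -0.02 without that array.

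HSPD1, the mitochondrial chaperonin, had levels of 5.06, 5.77 and 6.14 in low-RFI pigs, against 5.26, 5.63 and 5.78 in high-RFI pigs at probe 16. HSPE1, its co-chaperonin, had levels of 5.50, 6.12 and 6.64 in low-RFI pigs, against 5.42, 5.93 and 6.34 in high-RFI pigs at probe 3. Low-RFI pigs held both the lowest and the highest HSPD1 level, on replicates 1 and 4. The line differences were 0.14 (SE 0.14) for HSPD1 and 0.16 (SE 0.16) for HSPE1.

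HSPB1, the most widespread small heat shock protein, had levels of 4.21, 4.53 and 5.46 in low-RFI pigs, against 3.92, 4.50 and 5.12 in high-RFI pigs at probe 2, with a line difference of 0.24 (SE 0.22). CRYAB varied more than any other of the 9 genes, with an SD of 1.39 over the 16 arrays, against 0.22 to 0.52 for the brightest probes of the others. In low-RFI pigs replicates 5-8 had 2.12, 2.08, 3.49 and 6.05, against 2.98, 3.89, 1.78 and 4.54 in replicates 1-4. In high-RFI pigs replicates 5-8 had 1.19, 1.84, 1.68 and 2.24, against 4.52, 3.67, 4.68 and 3.92 in replicates 1-4. The highest CRYAB and HSPB1 levels were both on low-RFI replicate 8, the array with the most muscle signal, while on low-RFI replicate 6 and high-RFI replicate 7 CRYAB was at 2.08 and 1.68, below its mean of 3.17.

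**Figure D1:**
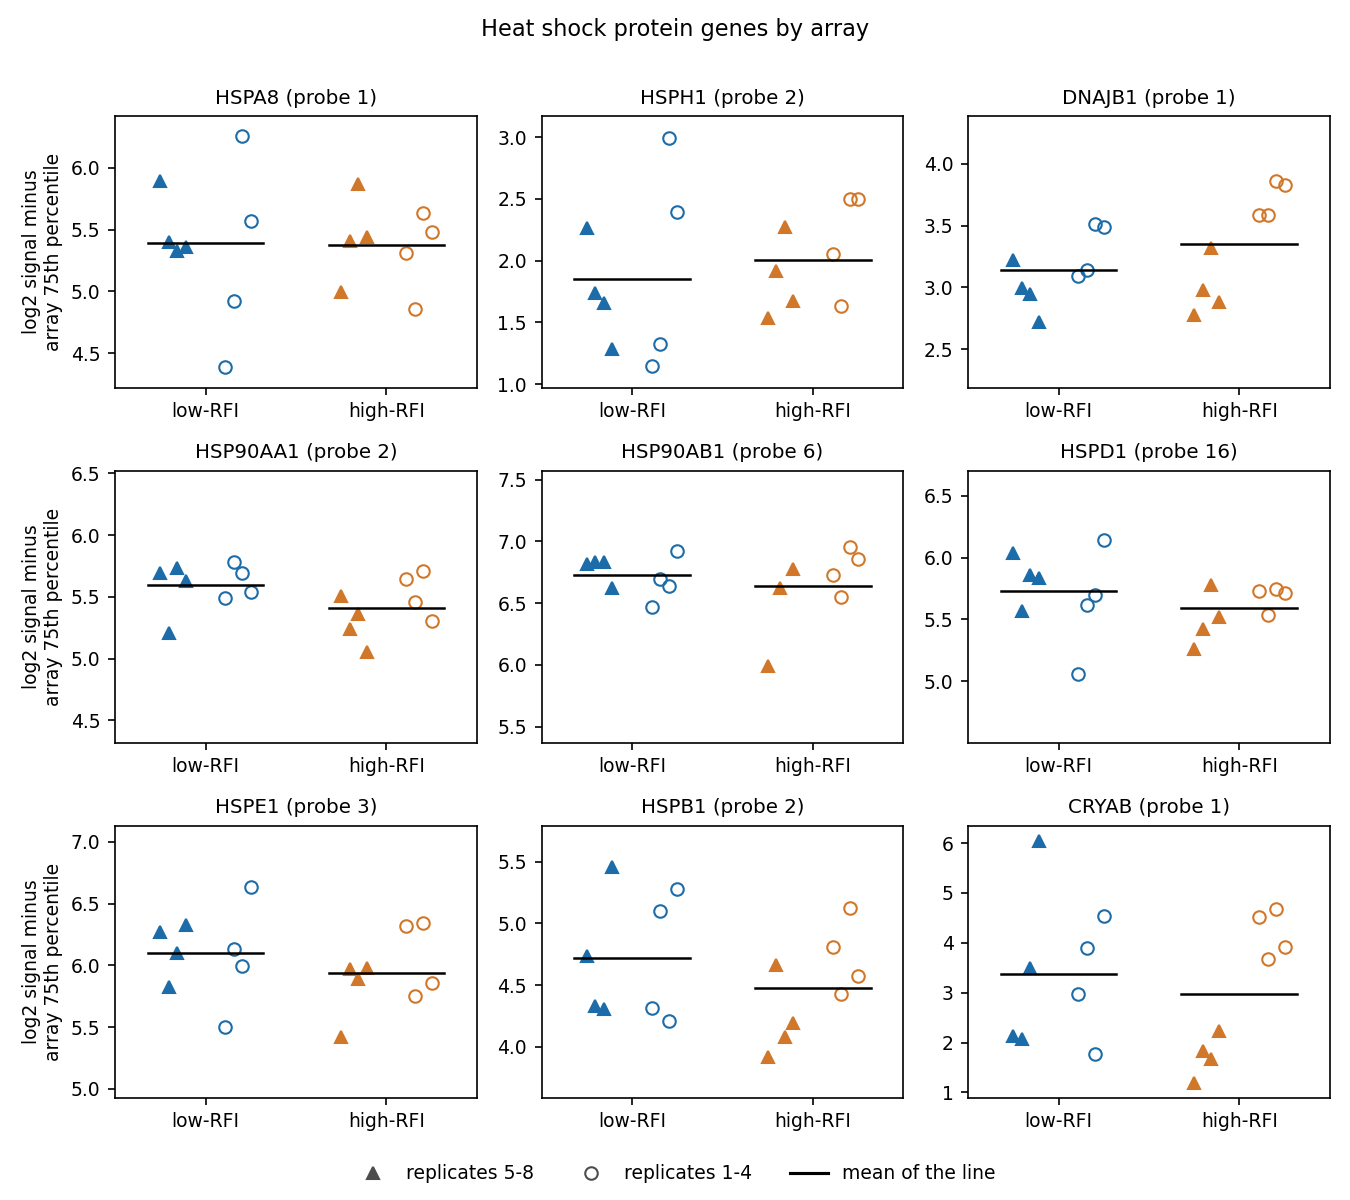
Log2 signal minus the array's 75th percentile (vertical axis, a scale of its own in each panel) for the brightest probe of each gene, low-RFI left and high-RFI right, with replicates 5-8 as triangles, replicates 1-4 as circles and the line mean as a bar. The lines overlap in every panel. In high-RFI pigs CRYAB and DNAJB1 of replicates 5-8 lie below those of replicates 1-4, and the share of all probes that do so was not counted.

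The line comparison asks whether selection on feed efficiency goes with chaperone expression in fat. In limma 0 of the 33 member probes, and 0 of the 46 with the older-named ones, passed an adjusted p under 0.05, beside 0.0% of all 32179 probes, and 0 of the 46 had an unadjusted p under 0.05, beside 3.68% of all probes. No probe had lines that did not overlap, beside 0.0155% of all probes. The differences were mostly positive, that is higher in low-RFI pigs, in 29 of 33 member probes, beside 50% of all probes, with a median of 0.14 beside 0 over all probes. Since 20 of the 33 are HSPD1 probes that largely repeat each other, such a count says little on its own. All 20 HSPD1 probes lay between 0.06 and 0.22, all 4 HSPE1 probes between 0.14 and 0.21, and the HSP90AA1 probes between 0 and 0.28. Both HSPH1 probes, at -0.13 and -0.16, and DNAJB1 probe 1 were lower in low-RFI pigs without passing the test. Without the 3 arrays with muscle signal CRYAB differed between the lines by -0.02, beside 0.40 (SE 0.66) on all arrays.

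Split by replicate number, the line difference was positive for most member probes in replicates 5-8. In replicates 1-4 it was negative for most, with a median near 0. In replicates 5-8 30 of 33 member probes were higher in low-RFI pigs, beside 49.9% of all probes, with a median of 0.32 beside 0. In replicates 1-4 10 of 33 were higher, beside 48.5% of all probes, with a median of -0.04 beside -0.01. There 16 of the 23 lower probes were HSPD1 probes, and 5 of 6 HSP90AA1 probes were higher. The HSPD1 probes largely repeat each other, so neither count says much on its own. Under normexp background correction HSPD1, HSPE1, HSPA8 and HSPB1 turned positive in replicates 1-4. None of the 46 probes passed in limma in either set (0.0% of all probes), and 1 in each had an unadjusted p under 0.05, beside 5.79% and 6.33% of all probes. In replicates 5-8 this was CRYAB, 1.70 higher in low-RFI pigs (SE 0.75, adjusted p = 0.856 in limma), which was 0.83 without low-RFI replicate 8. In replicates 1-4 it was DNAJB1 probe 1, at -0.41 (SE 0.15, adjusted p = 0.690 in limma). Its 4 low-RFI arrays all lay below its 4 high-RFI arrays, as for 1.71% of all probes. HSP90AB1 probe 3 had all 4 low-RFI arrays above all 4 high-RFI arrays in replicates 5-8, at 0.23 (SE 0.19), as for 1.36% of all probes.

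The test of the difference between the sets called none of the 46 probes either (0.0% of all probes; 2 with an unadjusted p under 0.05, beside 6.8% of all). The line difference in replicates 5-8 minus that in replicates 1-4 was positive for 45 of the 46, beside 50.3% of all probes. Its median was 0.35 beside 0.00, and the exception was HSP90AA1 probe 3 at -0.14. Since 20 of the 46 are HSPD1 probes that largely repeat each other, and the genes share much of their profile over the arrays, this count says little on its own. CRYAB gave 2.60 (SE 1.06, adjusted p = 0.721 in limma) and HSP90AB1 probe 5 gave 0.50 (SE 0.22, adjusted p = 0.726 in limma). HSPD1 probe 16 gave 0.39, HSPE1 probe 3 gave 0.32 and HSPB1 probe 2 gave 0.50, while HSPA8 and HSPH1 gave 0.10 and 0.09. Without low-RFI replicate 1 HSPD1 gave 0.20 and HSPE1 0.13, without low-RFI replicate 8 HSPB1 gave 0.25 and CRYAB 1.73, and without high-RFI replicate 5 HSP90AB1 probe 6 gave 0.17, beside 0.41 with it. Within replicates 5-8 the 14 muscle markers were all higher in low-RFI pigs (median 2.59) and the 9 T and NK cell markers all lower (median -0.94). Macrophage markers were lower in 6 of 7 (median -0.62) and epithelial ones in 5 of 6 (median -1.41), and adipocyte markers were higher in 10 of 11 (median 0.17), with no marker past the threshold. Without the 3 arrays with muscle signal, replicates 5-8 kept low-RFI replicates 5 and 7 and high-RFI replicates 5, 6 and 8. HSP90AB1 had no value on the last. The line difference there was 0.55 for HSPD1 (SE 0.25), 0.52 for HSP90AB1 (SE 0.23) and 0.45 for HSP90AA1 (SE 0.18), each larger than with them. CRYAB gave 1.05 (SE 0.69), smaller than with them, and adjusted p ran from 0.679 to 0.755 in limma over these genes. HSPB1 was smaller too, at 0.26 (SE 0.35). HSPE1, HSPA8, HSPH1 and DNAJB1 were larger, at 0.40, 0.33, 0.26 and 0.21. Without high-RFI replicate 5, the array with the immune signal, the line difference in replicates 5-8 was 0.25 for HSPD1, 0.19 for HSPE1 and 0.08 for HSP90AB1, beside 0.33, 0.32 and 0.32 with it. In the same fit HSP90AA1 gave 0.35 (SE 0.15) and CRYAB 1.52 (SE 0.82), beside 0.28 and 1.70 with that array. HSPB1 had 0.24 without low-RFI replicate 8, beside 0.49 with it. The part of the other marker lists in these differences was not tested.

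**Figure D2:**
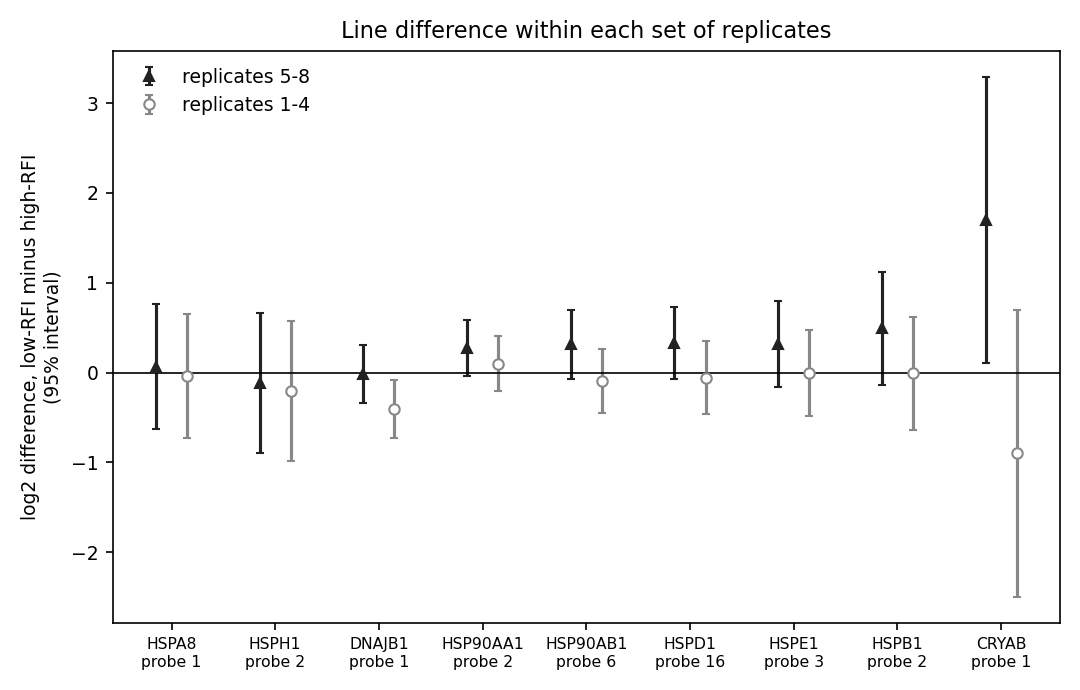
Log2 difference of low-RFI minus high-RFI pigs with its 95% interval (vertical axis) for the brightest probe of each gene, in replicates 5-8 (black triangles) and in replicates 1-4 (grey circles). The intervals overlap for every gene, and the widest are those of CRYAB, at 1.70 and -0.90. The interval of CRYAB in replicates 5-8 lies above 0 and that of DNAJB1 in replicates 1-4 below 0. Neither passed after adjustment.

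Replicates 5-8 differed from replicates 1-4 in 1 member probe, DNAJB1 probe 1, which fell to a mean of 2.98 ± 0.21 in replicates 5-8, against 3.51 ± 0.28 in replicates 1-4 (SD, n = 8 each). The difference was -0.53 (SE 0.11, 95% interval -0.76 to -0.30), or 1.45-fold, with an adjusted p of 0.0185 in limma. Among all probes 5.19% passed, 1.96% higher and 3.23% lower, so 1 of 33 is near the share of all probes. In all 23 of the 33 were lower in replicates 5-8, beside 54.8% of all probes, with a median of -0.03 beside -0.03, and no probe had sets that did not overlap, beside 0.41% of all probes. The difference was negative within each of the 4 slides, at -0.40, -0.34, -0.51 and -0.88, and each slide holds 1 array of each line and set. The other DNAJB1 probes gave -0.31, -0.27 and -0.48 (adjusted p = 0.346, 0.237 and 0.228 in limma) and so were not called. The last of them, probe 4, was dim, with median levels of -5.81 in replicates 5-8 and -5.28 in replicates 1-4. Without the 3 arrays with muscle signal DNAJB1 probe 1 gave -0.53 with an adjusted p of 0.0502 in limma, where 351 of all probes passed, beside 1669 with all arrays. Under normexp background correction it gave -0.55 with an adjusted p of 0.194 in limma, where 7 passed.

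The HSP90 genes did not pass. All 6 HSP90AA1 probes were lower in replicates 5-8, by 0.14 to 0.33 on the log2 scale, and 3 of them had an unadjusted p under 0.05, beside 23.7% of all probes (14.2% lower). HSP90AA1 probe 5 averaged 4.42 ± 0.27 in replicates 5-8 and 4.75 ± 0.35 in replicates 1-4 (SD, n = 8 each), the largest of the 6 differences at -0.33 (SE 0.15, adjusted p = 0.194 in limma). The 6 HSP90AB1 probes did not go one way. Probes 1 and 2, which overlap near the start of the transcript, gave 0.22 each, and probes 3 to 6 gave -0.24 to -0.10.

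HSPD1 showed no shift between the sets: its 20 probes lay between -0.08 and 0.13 with a median of 0.00. HSPD1 probe 16 averaged 5.66 ± 0.26 in replicates 5-8 and 5.66 ± 0.30 in replicates 1-4 (SD, n = 8 each), and the 95% interval of its difference ran over -0.28 to 0.29. HSPE1 gave -0.23 to -0.04 over 4 probes, HSPH1 -0.22 and -0.27, HSPB1 -0.26 and -0.27, and HSPA8 0.16 (SE 0.23). CRYAB was -1.16 (SE 0.53, adjusted p = 0.198 in limma). Leaving out low-RFI replicate 8 took it to -1.60 (SE 0.37, adjusted p = 0.0347 in limma), past the threshold. Leaving out all 3 arrays with muscle signal gave -1.47 (SE 0.44, adjusted p = 0.109 in limma). The 14 muscle markers were all higher in replicates 5-8 (median 1.39, none past the threshold). Their mean was 8.20 above average on low-RFI replicate 8, 1.37 on low-RFI replicate 6 and 0.59 on high-RFI replicate 7. On the other arrays of replicates 5-8 it was -0.99 to -0.76. The part of muscle signal in the CRYAB difference was not tested.

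**Figure D3:**
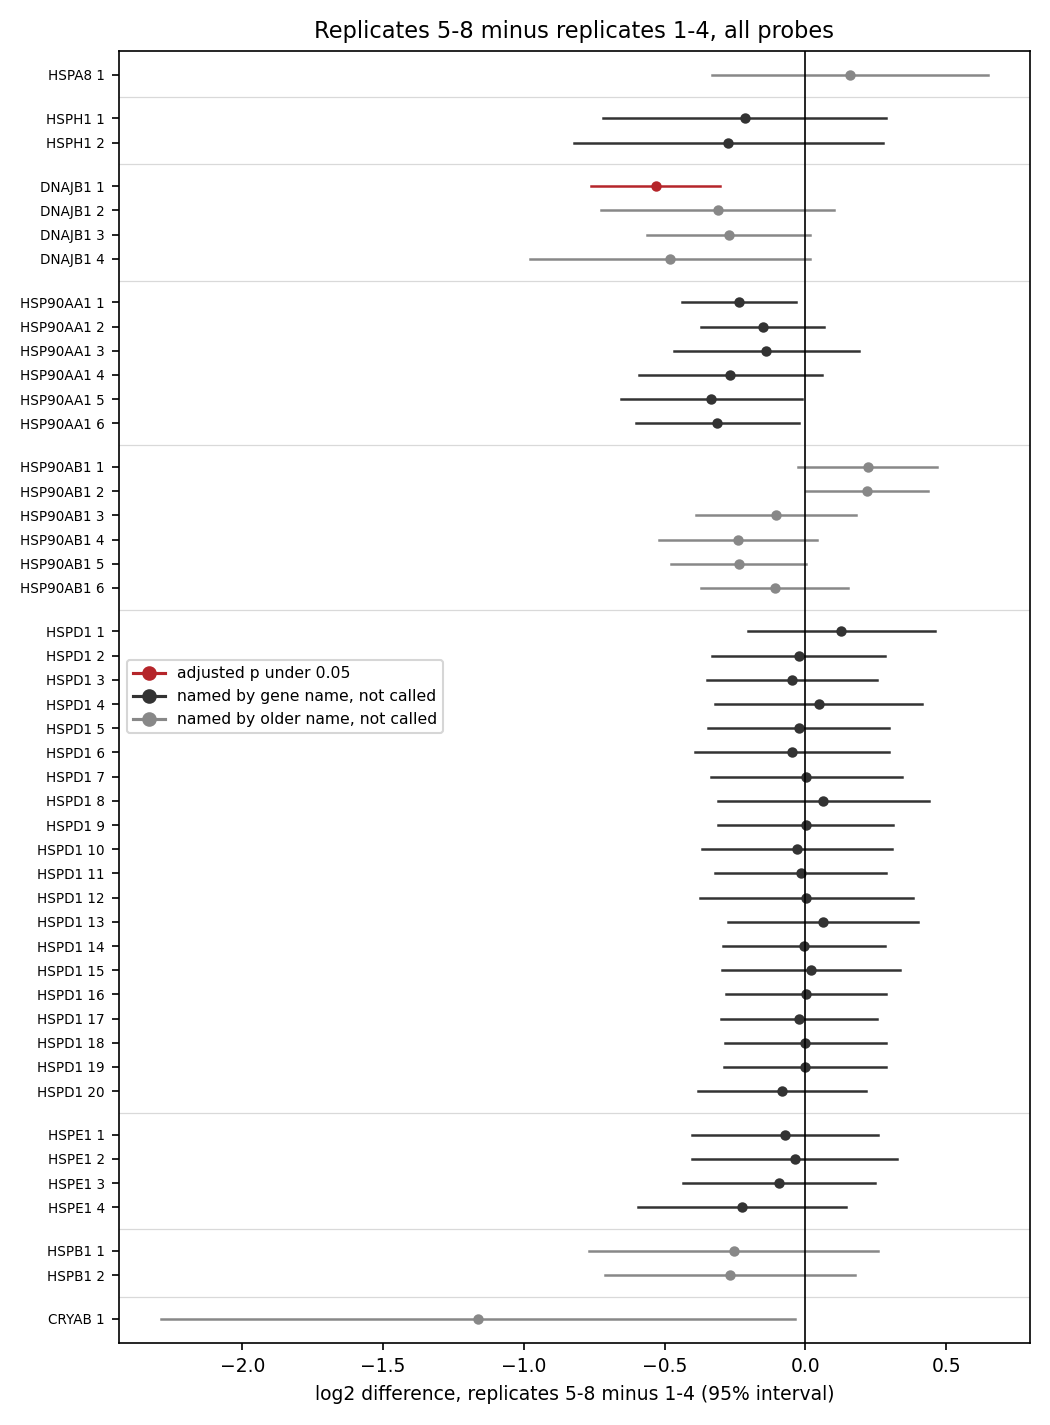
Log2 difference of replicates 5-8 minus replicates 1-4 with its 95% interval (horizontal axis) for all 46 probes, grouped by gene, with the called probe in red, other probes found by gene name in black and those found by older names in grey. DNAJB1 probe 1 is the single called probe at -0.53, the HSP90AA1 probes all lie left of 0, and the HSPD1 probes centre on 0.

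How far probes of 1 gene followed each other over the arrays differed between genes. The 190 pairs of HSPD1 probes had a median r of 0.958 (lowest 0.569), HSPE1 had 0.883 over 6 pairs, and the single pairs of HSPH1 and HSPB1 had 0.983 and 0.967. These are descriptions of probes on the same arrays, not tests. The HSP90 genes were less uniform, with a median r of 0.545 for HSP90AA1 and 0.474 for HSP90AB1 over 15 pairs each. In HSP90AA1 probes 4, 5 and 6, which start at bases 1898, 2348 and 2388 of the transcript, had r of 0.832 to 0.930 with each other, and probes 1 and 2, at bases 227 and 662, had 0.859, but probes 2 and 4 had 0.229. In HSP90AB1 probes 1 and 2, at bases 668 and 675, had 0.927 with each other and 0.053 to 0.474 with the other 4. DNAJB1 probes 1, 2 and 3 had r of 0.696 to 0.904, and probe 4, which was well above background on 10 arrays only, had 0.059 to 0.373 with them.

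**Figure D4:**
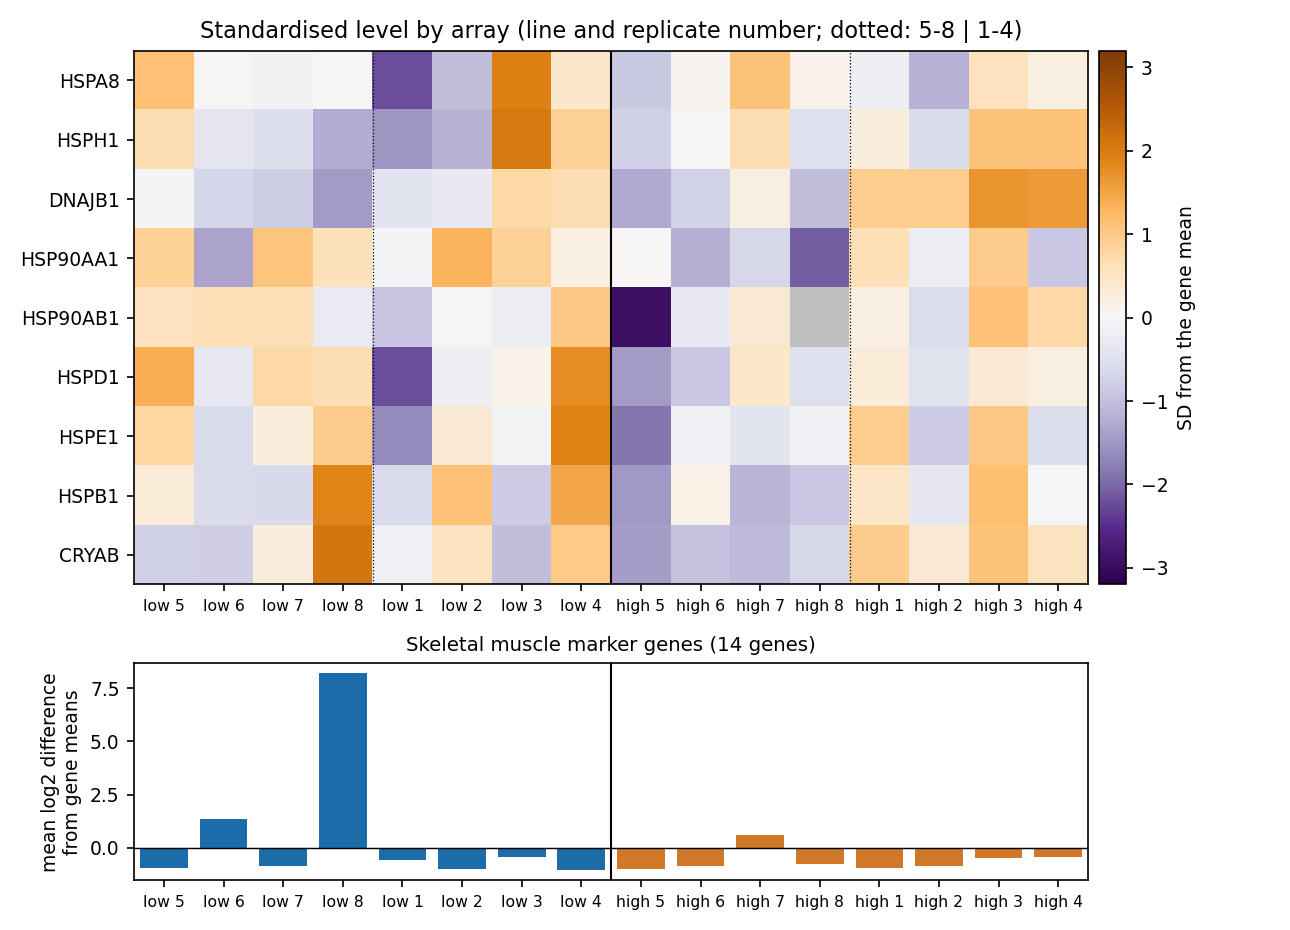
Standardised level of the brightest probe of each gene (rows, in SD from the gene's mean, colour) on each array (columns, low-RFI left of high-RFI, and in each line replicates 5-8 left of 1-4), above the mean of 14 skeletal muscle markers on the same arrays. High-RFI replicate 5 and low-RFI replicate 1 are low in most rows, low-RFI replicate 4 and high-RFI replicate 3 are high, and the grey cell is the missing HSP90AB1 value.

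Across the 16 arrays 8 of the 36 pairs of chaperone genes were correlated past the threshold, all positively, and none of the 8 held HSP90AA1. Each gene entered by its brightest probe, and Pearson's r was tested with a two-sided permutation test of 100000 resamples and adjusted over the 36 pairs. The median r of the 36 pairs was 0.411, beside 0.013 over 10154271 pairs of named genes, a difference that was not tested, and 6 pairs (16.7%) reached 0.7, beside 1.51%. By Spearman's rho 7 pairs passed. HSPA8 with HSPD1 and HSP90AB1 with HSPE1 passed by r only, and HSPE1 with CRYAB by rho only (r = 0.608, adjusted p = 0.0505 by r and 0.0429 by rho, permutation test). The weakest of the 8 had r = 0.661, a value reached by 2.25% of all pairs of named genes. The mean standardised level of the 9 genes was lowest on high-RFI replicate 5, at -1.35, and low-RFI replicate 1, at -1.08. It was highest on low-RFI replicate 4, at 1.04, and high-RFI replicate 3, at 1.0. Before scaling, low-RFI replicate 1 and high-RFI replicate 5 had the lowest 75th percentiles of signal of the 16 arrays, at 401 and 435. Low-RFI replicate 4 had the highest, at 554.8, and high-RFI replicate 3 had 507.5. The part of array brightness in the shared profile and in these correlations was not tested.

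HSPD1 and HSPE1, which are neighbours in the pig gene table and share a promoter in human, had r = 0.849 (rho = 0.762, permutation p = 5e-05, adjusted p = 0.0009). It was 0.825 in replicates 5-8, 0.885 in replicates 1-4 and 0.908 within slides, and 0.732 without low-RFI replicate 1 and high-RFI replicate 5. HSPA8 and HSPH1, chaperone and exchange factor, had r = 0.837 (rho = 0.850, permutation p = 2e-05, adjusted p = 0.00072), with 0.833 in replicates 5-8, 0.967 in replicates 1-4 and 0.717 without low-RFI replicates 1 and 3. Across the 2 pairs r was lower, a difference that was not tested. HSPA8 had r = 0.475 with HSPE1 (adjusted p = 0.166, permutation test), and HSPH1 had 0.365 (adjusted p = 0.259, permutation test), although HSPA8 with HSPD1 passed at 0.661 (rho = 0.53, adjusted p = 0.0275 by r and 0.116 by rho, permutation test).

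The small heat shock proteins HSPB1 and CRYAB had r = 0.824 (rho = 0.821, permutation p = 8e-05, adjusted p = 0.00096). The muscle signal moves with both on low-RFI replicate 8, and without the 3 arrays that carry it r was 0.722. In replicates 5-8 it was 0.813 and in replicates 1-4 0.815. HSPB1 also followed HSPE1, at r = 0.793 (rho = 0.738, permutation p = 0.00026, adjusted p = 0.00234), whereas it had 0.03 with HSPA8 and 0.00 with HSPH1.

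HSPH1 and DNAJB1 had r = 0.694 (rho = 0.668, permutation p = 0.00344, adjusted p = 0.0189). It was 0.967 in replicates 5-8, 0.715 in replicates 1-4 and 0.888 once the mean of each line and set had been taken off. HSPA8 and DNAJB1 had only 0.282 over all arrays (rho = 0.30, adjusted p = 0.400, permutation test), but 0.877 in replicates 5-8, 0.585 in replicates 1-4 and 0.821 after the group means had been taken off. Within each set r was thus higher than over all arrays. For HSPA8 and DNAJB1 it was lower within slides, at 0.16, and without low-RFI replicates 1 and 3, at 0.20. The level of DNAJB1 probe 1 differed between the sets, and the part of that difference in these correlations was not tested.

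HSP90AB1 followed the mitochondrial pair, at r = 0.712 with HSPD1 (rho = 0.707, adjusted p = 0.0189, permutation test, 15 arrays) and 0.704 with HSPE1 (rho = 0.579, adjusted p = 0.015 by r and 0.094 by rho, permutation test, 15 arrays). Without high-RFI replicate 5 and low-RFI replicate 1 these were 0.566 and 0.418, so the second rests largely on those arrays. The paralogs HSP90AA1 and HSP90AB1 had r = 0.083 by their brightest probes (rho = 0.196, adjusted p = 0.854, permutation test, 15 arrays). By the mean of all probes of each gene, an alternative chosen after seeing the data, they had 0.653 (adjusted p = 0.0197, permutation test), and 16 of the 36 pairs passed. HSP90AA1 by its brightest probe was in none of the 8 pairs. By gene means it also passed with HSPE1 at 0.722, HSPB1 at 0.696, HSPD1 at 0.679 and CRYAB at 0.635 (adjusted p = 0.00751 to 0.0231, permutation test). With HSPA8, HSPH1 and DNAJB1 it had 0.344, 0.403 and 0.364 and did not pass.

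**Figure D5:**
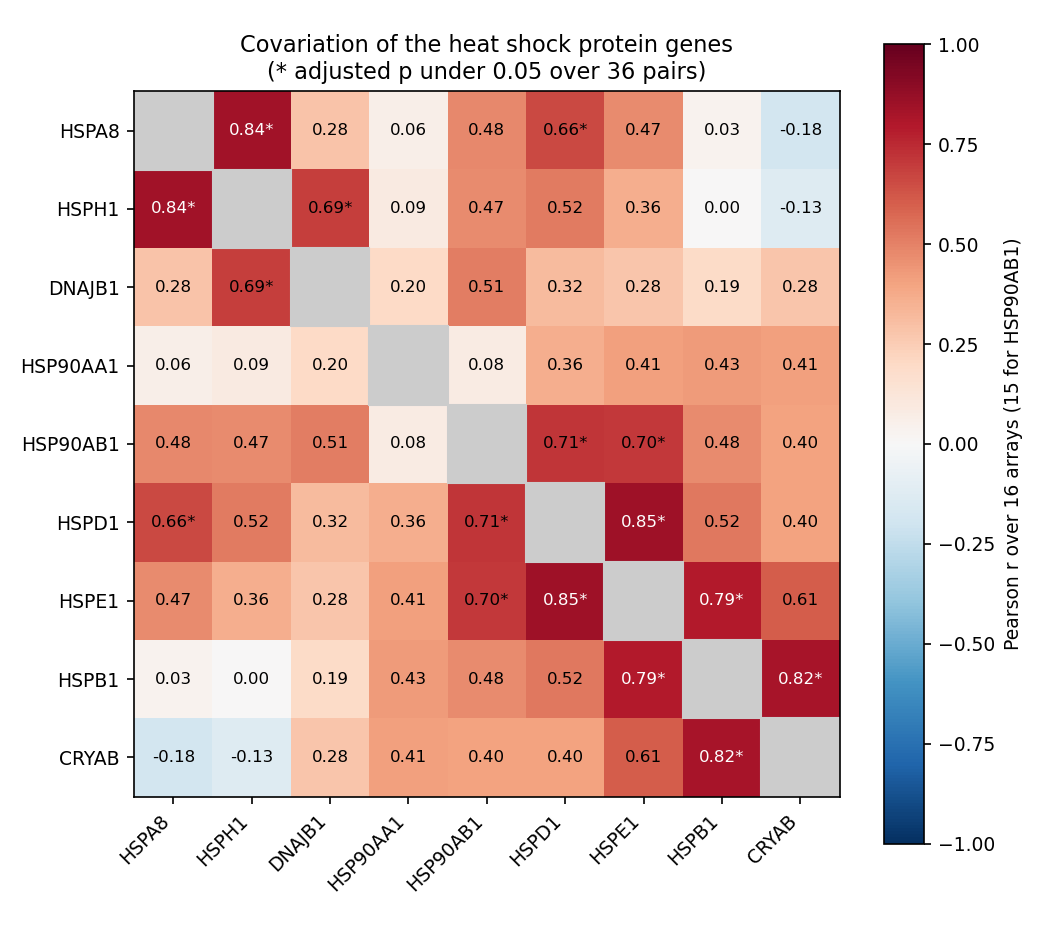
Pearson's r over the 16 arrays (15 for HSP90AB1) for each pair of the 9 genes, by their brightest probes, with a star where the permutation p adjusted over the 36 pairs was under 0.05. The 8 starred pairs are HSPA8 with HSPH1 and HSPD1, HSPH1 with DNAJB1, HSPD1 with HSPE1, HSP90AB1 with HSPD1 and HSPE1, and HSPB1 with HSPE1 and CRYAB.

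The genes outside the family that came closest to the mean of the 9 members, out of 4499 ranked, were BCAS2 at r = 0.915, DLST and CDC37 at 0.913, AHSA1 at 0.911, UQCRB and FKBP4 at 0.910, TIMM23 at 0.902 and MTX2 at 0.894, each over 16 arrays and as a description. CDC37, which brings kinases to HSP90, AHSA1, which speeds its ATPase, and FKBP4, an immunophilin of steroid receptor complexes, are co-chaperones of HSP90. UQCRB, TIMM23, MTX2 and DLST belong to mitochondria. For HSPH1 the closest were MFSD5, PITPNB, ORMDL1, ABHD13 and SRP54, at 0.867 to 0.852. For CRYAB they were GOT1 at 0.90, HSPB2 at 0.899, FAM158A at 0.894, FHL1 at 0.882 and PRKAA2 at 0.875. HSPB2, a small heat shock protein of muscle, is the neighbour of CRYAB in the pig gene table, and FHL1 is a LIM protein of muscle.

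Other genes of the chaperone system were taken from lists of co-chaperones, J-domain proteins and relatives. Between the lines 0 genes of the 10 lists passed in limma, and among all 4635 named genes 0 did (72 higher and 104 lower at an unadjusted p under 0.05). The genes with an unadjusted p under 0.05 were SDF2L1, a stress-inducible protein of the endoplasmic reticulum, at -0.80 (SE 0.29), and the immediate early gene FOS at 1.34 (SE 0.60), both with an adjusted p of 1.0 in limma. In replicates 5-8 SDF2L1 gave -1.31 (SE 0.39) and DNAJC3 -0.34 (SE 0.15), and in replicates 1-4 FOS gave 2.36 (SE 0.74) and PFDN2 -0.22 (SE 0.10), with adjusted p from 0.562 to 0.856 in limma. The line difference between the sets was positive for 9 of 9 HSP90 co-chaperones measured, beside 2456 of 4635 named genes. Its median was 0.27 over the co-chaperones, beside 0.02 over all named genes. PTGES3 and UNC45A were near 0, at 0.01 (SE 0.19) and 0.02 (SE 0.19), and UNC45B gave 2.03 (SE 1.19). CDC37, AHSA1 and FKBP4 were among the genes closest to the mean of the members, so the count is not separate from the members' own. Of the co-chaperones CDC37 gave 0.45 (SE 0.20, adjusted p = 0.728 in limma), and the prefoldin subunit PFDN2 gave 0.41 (SE 0.14, adjusted p = 0.703 in limma). HSPA5, the HSP70 of the endoplasmic reticulum, went the other way at -0.70 (SE 0.28, adjusted p = 0.716 in limma).

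Between the sets of replicates 5 listed genes passed, beside 94 higher and 175 lower of 4635 named genes (median -0.05). Among 5 other HSP70 and HSP110 chaperones 1 was lower in replicates 5-8, HSPA1L, a relative of the inducible HSP70, at -0.62 (SE 0.15, adjusted p = 0.0298 in limma). Among 11 other J-domain proteins 2 were lower, DNAJC12 at -1.53 (SE 0.35, adjusted p = 0.0261 in limma) and DNAJC6, the auxilin of clathrin coats, at -1.65 (SE 0.39, adjusted p = 0.0291 in limma). Among 9 HSP90 co-chaperones 1 was lower, the myosin and HSP90 partner UNC45A at -0.38 (SE 0.10, adjusted p = 0.0372 in limma). Among 7 immediate early genes 1 was higher, MYC at 0.72 (SE 0.17, adjusted p = 0.0314 in limma). None of these calls held in all of the alternative fits. DNAJC12 passed in 20 of 28, HSPA1L in 18 of 28, DNAJC6 in 18 of 26, MYC in 15 of 28 and UNC45A in 10 of 28, and without the 3 arrays with muscle signal only DNAJC6 of the 5 passed. Under normexp background correction none of the 5 passed, and DNAJC6 gave -0.03 (SE 0.32, adjusted p = 1.0 in limma).

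The remaining lists had no gene past the threshold between the sets. Of 11 genes of the endoplasmic reticulum 9 were positive (median 0.15), beside 1946 of 4635 named genes. Those with the smallest p were ATF6 at 0.23 (SE 0.10) and HSPA5 at 0.33 (SE 0.14), with adjusted p of 0.166 and 0.172 in limma. Among the 3 heat shock factors and regulators measured HSPBAP1 gave -0.28 (SE 0.14) and HSBP1 -0.12 (SE 0.14), and HSF1 was not among the genes measured. The 2 small heat shock proteins gave -0.16 (SE 0.18) for HSPB2 and 0.47 (SE 0.78) for HSPB8. The prefoldin subunits PFDN4 and PFDN2 gave -0.13 (SE 0.07) and -0.06 (SE 0.07), the exchange factors BAG3 and BAG6 -0.11 (SE 0.14) and 0.01 (SE 0.08), and DNAJC19 of the mitochondrial import motor -0.18 (SE 0.14).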

How the data were processed

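Subcutaneous fat RNA of 16 pigs was read on 1-colour Agilent arrays, 1 array per pig. The intensity files were deposited as the scanner software wrote them, Feature Extraction 10.7.3.1 per the file headers, and their processed signals are background-subtracted and detrended by that software but not scaled between arrays. The authors' deposited table of log2 values was found here to equal the log2 processed signal minus the array's median over its 28963 probes. The submitters' processing notes name R 2.10.0, and its role is not given in the sources used here.

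Spots marked as outliers were left out (0.202% of kept values), and probes spotted more than once were averaged. The log2 processed signal minus each array's 75th percentile was the level. Of 43603 non-control probes, 32179 were kept: well above background on at least 8 arrays, with at least 2 values in each line and replicate set. Limma 3.58.1 in R 4.3.3 fitted all kept probes, with Benjamini-Hochberg adjustment over all of them and a threshold of 0.05. The line was the only term for the line comparison. The set comparison, the line differences within each set and their difference came from 1 fit with a term for each of the 4 line and set groups. Correlations used Python 3.11.15 with 100000 resamples (smallest possible p 1e-05). The fits and correlations were tested on simulated data. The number of arrays, 8 per line, limits the precision.

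Members, gene lists and tests were chosen with earlier results of these data known. Genes with older names were matched through their names, descriptions and transcripts. Named genes were all members with their kept probes; up to 3 genes per direction past the threshold from each list in each comparison, or otherwise the 2 with the smallest p, of which only some are printed; the 8 genes most similar to the members' mean profile, and 5 each for HSPH1 and CRYAB; and defining markers of other tissues. A gene with several probes is given by its brightest probe. Gene names and neighbours come from a RefSeq table of assembly Sscrofa11.1, and probe positions are starts in the transcript named in the scanner files. Alternatives were normexp background correction with an offset of 50, quantile scaling, the deposited table, other filters, array weights, slide and replicate number as blocks, and each array left out. The 3 arrays with muscle signal were also left out, as were high-RFI replicates 2 and 6 for epithelial signal, with high-RFI replicate 7 kept in the latter. Slide as a fixed block for the set comparison, its values within slides and means over a gene's probes were added after seeing the data. Replicate numbers were checked for pairing across the lines: the correlation of same-numbered arrays' deviations from the line means ran over -0.295 to 0.321, so the numbers were not taken as pairs.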

Additional observations from a re-analysis of the deposited data

Results flagged for a closer look

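Of 53 groups of 4 to 8 values tested, 5 had a value set apart from the others by a large gap, where chance gives about 1 in 20. On high-RFI replicate 5 both HSP90AB1 probe 6, at 5.99 among the 7 high-RFI values (next lowest 6.55), and HSPE1 probe 3, at 5.42 among replicates 5-8 of that line (next lowest 5.89), were low, and the same array had the highest T and NK cell and macrophage markers, at 1.64 and 1.36 above their means; their part was not tested. HSP90AB1 probe 6 was also low on low-RFI replicate 8, at 6.62 against 6.82 for the next of low-RFI replicates 5-8, and that array carried the muscle signal. HSPA8 probe 1 was high on low-RFI replicate 5, at 5.90 against 5.40 for the next of replicates 5-8, and HSPD1 probe 16 was low on high-RFI replicate 2, at 5.54 against 5.72 for the next of replicates 1-4.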

How the results depend on the processing

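DNAJB1 probe 1 stayed past the threshold between the replicate sets in 26 of 28 alternatives (-0.59 to -0.48, adjusted p = 0.00832 to 0.194 in limma). The count of called members there was 0 under normexp and 0 without the 3 arrays with muscle signal, against 1. Over all probes the calls numbered 1669, with 7 under normexp, 351 without the muscle arrays, 879 with no filter and 5198 with array weights. They numbered 472 without high-RFI replicates 2 and 6, the 2 arrays left out for epithelial signal. With single arrays left out they numbered 576 to 4726 (lowest without low-RFI replicate 2, highest without low-RFI replicate 3). With the replicate block, 1651 probes and 1 member probe passed (adjusted p = 0.0187), and no other member count changed. Pairs of correlated genes numbered 6 to 10 with single arrays left out, 6 to 12 under the other alternatives, and 16 by gene means, against 8.

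No line difference passed in any of these alternatives, and some small ones changed sign. Under normexp the line difference in replicates 5-8 was 0.095 for DNAJB1, in replicates 1-4 0.066 for HSPD1, 0.094 for HSPE1, 0.113 for HSPA8 and 0.11 for HSPB1, its difference between the sets -0.018 for HSPH1, and the set difference -0.02 for HSPD1. Under quantile scaling the line difference was -0.001 for HSP90AB1 and -0.042 for HSPA8, in replicates 5-8 -0.06 for HSPA8, in replicates 1-4 0.014 for HSPE1 and 0.027 for HSPB1, and between the sets -0.036 for HSPA8. Without the muscle arrays the line difference was -0.016 for CRYAB, and in replicates 5-8 0.209 for DNAJB1 and 0.257 for HSPH1. Without the 2 epithelial arrays it was -0.064 for HSPA8, and the set difference was -0.009 for HSPD1. With array weights it was -0.051 for CRYAB, and in replicates 1-4 0.036 for HSPE1 and 0.151 for HSPB1. The cause was not tested.

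With single arrays left out, the line difference was -0.018 to 0.142 for HSP90AB1 and -0.108 to 0.159 for HSPA8. In replicates 5-8 it was -0.102 to 0.094 for DNAJB1, -0.291 to 0.038 for HSPH1 and -0.076 to 0.216 for HSPA8. In replicates 1-4 it was -0.227 to 0.135 for HSPD1, -0.195 to 0.184 for HSPE1, -0.547 to 0.07 for HSPH1, -0.36 to 0.264 for HSPA8 and -0.192 to 0.163 for HSPB1. Its difference between the sets was -0.183 to 0.434 for HSPH1 and -0.196 to 0.428 for HSPA8. The set difference was -0.092 to 0.089 for HSPD1, -0.188 to 0.002 for HSPE1, -0.188 to 0.008 for HSP90AB1 and -1.60 to -0.94 for CRYAB. In all 1146 of 1215 gene values kept direction and side of the threshold.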
